A study of Mus musculus with 12 samples.

Results

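Cytosolic ribosomal protein genes encode the proteins of the small 40S and the large 60S subunit of the ribosome. They were taken from the count tables by their symbols, as genes named Rpl or Rps with a number, together with Rplp0, Rplp1, Rplp2, Rpsa and Rps3a1 and without genes named as pseudogenes (-ps). This gave 77 of the 46603 genes counted, 31 of the 40S and 46 of the 60S subunit, on 19 chromosomes. Every one of the 77 passed the filter on low counts in each comparison.

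The ribosome translates all mRNA of the cell, and its proteins are needed in equal numbers, one copy of most per ribosome. Their mRNAs typically begin with a C followed by a short run of pyrimidines, the 5′ terminal oligopyrimidine (TOP) tract, through which Larp1 and mTOR signaling set their translation, and dividing progenitors make ribosomes at a high rate. Myc proteins promote the transcription of ribosome components, and a shortage of ribosomal proteins frees Rpl5 and Rpl11 to bind Mdm2 and stabilize p53.

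RNA was isolated from neocortex of C57Bl/6J mice, from both hemispheres at embryonic day 12.5 (E12.5) and from 1 hemisphere at postnatal day 5 (P5). Chd8+/+ mice were compared with Chd8+/- littermates, which carry a null allele from which exon 3, floxed, was deleted in the whole body by β-actinCre. The Cre transgene was then crossed out. There were 3 libraries for each genotype and stage, 12 in all, and as the labels do not tell whether each library is a separate animal, p-values measure only the spread between these libraries. Each was sequenced in 2 runs that were summed here, giving between 38774591 and 54695236 counts per library. Chd8 encodes a chromatin remodeler, and the comparison between genotypes asks what loss of 1 copy does to cortical transcripts. Levels are CPM, the counts relative to the library total after TMM scaling within the stage. Chd8 itself was at 236, 233 and 238 CPM in E12.5 Chd8+/+ and 164, 169 and 164 in E12.5 Chd8+/-, and at 148, 148 and 143 in P5 Chd8+/+ and 95.2, 97.7 and 94.1 in P5 Chd8+/-. It was lower in Chd8+/- at both stages, with a log2 fold change of -0.51 ± 0.039 (SE) at E12.5 (adjusted p = 0.00562, edgeR) and of -0.61 ± 0.034 at P5 (adjusted p = 7.21e-05). At E12.5 this call was lost without Chd8+/+ replicate 3 (adjusted p = 0.141), Chd8+/- replicate 1 (0.124) or Chd8+/- replicate 3 (0.122), with the difference between -0.52 and -0.50 whichever library was left out. Xist, the transcript of the inactive X chromosome, was high in 1 library of each group. At E12.5 these were Chd8+/+ replicate 3 (2033 CPM) and Chd8+/- replicate 1 (1450). At P5 they were Chd8+/+ replicate 1 (1005) and Chd8+/- replicate 1 (831). Xist was at 0.171 to 2.23 CPM in the other 8. Its part in the member values was not tested, those of the 4 members on the X chromosome (Rpl10, Rpl36a, Rpl39 and Rps4x) included.

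The start regions of 8 members are shown because these genes had the largest and the smallest differences between stages among the 57 members with an entry in the RefSeq promoter table (GRCm38.p6). Each window runs 5′ to 3′ on the strand of the gene, with 30 bases before and 15 bases from the annotated start on. Capitals mark a run of at least 5 bases of C or T that covers the start or begins within 3 bases after it. For genes with several starts, the start with the longest run was taken. The 4 genes with the largest falls were Rpl5 (chr5:107900498-107900542, plus strand), Rps6 (chr4:86857353-86857397, minus strand), Rpl28 (chr7:4792935-4792979, plus strand) and Rpl7a (chr2:26910777-26910821, plus strand).
Rpl5: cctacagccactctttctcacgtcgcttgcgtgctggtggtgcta
Rps6: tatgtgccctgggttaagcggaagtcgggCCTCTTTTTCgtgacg
Rpl28: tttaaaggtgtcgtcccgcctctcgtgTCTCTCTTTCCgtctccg
Rpl7a: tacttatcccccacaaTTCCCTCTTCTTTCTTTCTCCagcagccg

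The 4 genes with the smallest differences were Rpl39 (chrX:37085208-37085252, minus strand), Rps21 (chr2:180257349-180257393, plus strand), Rpl38 (chr11:114668550-114668594, plus strand) and Rpl24 (chr16:55966245-55966289, plus strand).
Rpl39: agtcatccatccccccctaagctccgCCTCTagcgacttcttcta
Rps21: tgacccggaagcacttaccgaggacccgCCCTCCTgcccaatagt
Rpl38: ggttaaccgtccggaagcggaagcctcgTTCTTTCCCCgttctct
Rpl24: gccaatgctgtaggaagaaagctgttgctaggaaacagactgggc

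Such a run was found at the annotated start of 25 of the 57 members (43.9%), against 20.6% of the 27025 genes in the table. In the promoters, from 250 bases before to 50 after the start, the motif CCGGAAG of the ETS factor Gabpa was found on either strand in 24 members (42.1%), against 9.93% of all genes. The motif AAGATGG of Yy1, which can share the bases AAG with it, was found in 9 (15.8% against 7.28%), also on either strand. The pyrimidine motif CTCTTTC, chosen after the windows were read, was found on either strand in 18 (31.6% against 9.28%), among them Rpl5, whose window holds it before the annotated start and which had no run at the start. Among the windows shown, runs stand in Rps6, Rpl28 and Rpl7a and in Rpl38, Rps21 and Rpl39, so that both genes with large and genes with small stage differences carry them. The median stage difference was -0.92 (log2) for the 25 members with a run and -0.83 for the 32 without. Of these, 24 and 31 were called lower, against 44.2% of all genes tested. The median was -0.77 for the 24 members with CCGGAAG (23 called lower) and -0.88 for the 33 without (32 called lower).

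Ribosomal protein transcripts made up 2.77, 3.24 and 2.93% of all counts in the E12.5 Chd8+/+ libraries and 2.97, 2.81 and 3.07% in E12.5 Chd8+/-. At P5 the share was 1.54, 1.62 and 1.55% in Chd8+/+ and 1.82, 1.53 and 1.63% in Chd8+/-. All P5 libraries thus lay below all E12.5 libraries, whereas the genotypes overlapped at both stages. The difference of Chd8+/- minus Chd8+/+ was -0.030 percentage points at E12.5 (2.95 ± 0.130 against 2.98 ± 0.238%, SD, n = 3 each, exact two-sided permutation test p = 1) and 0.090 at P5 (1.66 ± 0.145 against 1.57 ± 0.0406%, exact permutation p = 0.5). With 3 libraries against 3 the smallest p this test can give is 0.1.

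**Figure D1:**
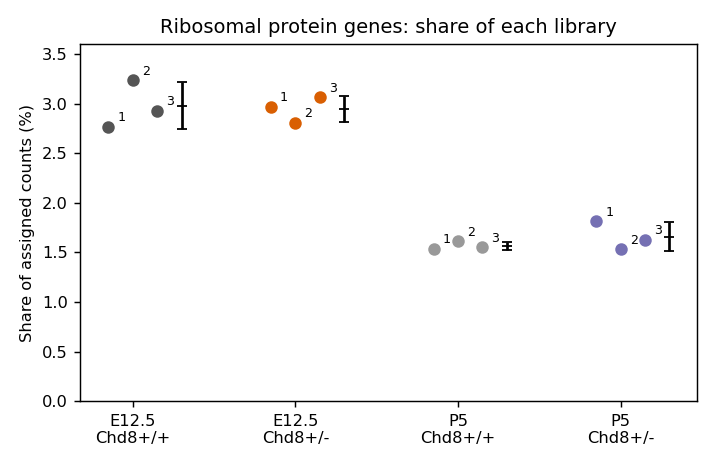
Share of all assigned counts (%) that fell on the 77 ribosomal protein genes, 1 point per library with its replicate number, and mean ± SD of the 3 libraries beside each group. The 6 E12.5 libraries lie between 2.77 and 3.24%, all above the P5 libraries at 1.53 to 1.82%.

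Members differed widely in level. Per kb of the gene length given with the counts, in E12.5 Chd8+/+, the highest mean levels were those of Rps26 (909 ± 93.3 CPM per kb, SD, n = 3), Rplp1 (846 ± 114) and Rpl4 (771 ± 55.4), whose ranges over the libraries overlap although their order was the same in each of the 3. The lowest were Rpl24 (12.1 ± 0.999), Rpl35a (44.3 ± 4.23) and Rps19 (53.5 ± 4.89), the median being 219. This order depended on the length used. Per kb of the principal transcript (a choice made after the data were seen) the highest were Rpl41, Rps15 and Rplp1 and the lowest Rpl24, Rps20 and Rpl39, and the ratio of the upper to the lower quartile was 1.79 in place of 3.06. The 4 groups shared Rpl24 as the lowest member on either scale. Rpl24 shares exons on the same strand with the gene Gm28037, which had 0 counts in all libraries, and 81.7% of the 50-base stretches of its principal transcript also occur in transcripts of other genes. Over 50% of these stretches were shared in 51 of the 77 members, up to 98.7% in Rps27, so that reads from near-identical copies are uncertain. The 266 pseudogenes named after 57 members had counts equal to 2.2 to 2.6% of those of the members, which do not include them.

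The largest difference in these genes was between the stages. From E12.5 to P5, 74 of the 77 members (96.1%) fell and none rose, against 44.2% of all 19676 genes tested that were lower and 43.7% that were higher (edgeR, 12 libraries, averaged over genotypes). The median log2 fold change of the members was -0.88, against -0.0087 over all genes. In 70 members every P5 library lay below every E12.5 library, as in 39% of all genes. These levels were scaled within each stage, whereas the fold changes rest on scaling over all 12 libraries. The 40S members had a median of -0.89 (31 of 31 called lower) and the 60S members of -0.85 (43 of 46). The median was -0.90 in Chd8+/+ alone (75 members called) and -0.83 in Chd8+/- alone (72 called). The 26 members with under 50% of these stretches shared had a median of -0.85 (26 called lower), and the 51 others of -0.89 (48). Stage, dissection and sequencing run cannot be told apart here, nor can fewer cells of a type and less RNA per cell.

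Cell types differed between the stages as well. The summed level of 6 progenitor markers was 2454 to 2649 CPM at E12.5 and 197 to 224 at P5, that of 6 neuronal markers 1524 to 1903 and 3034 to 3379, that of 7 erythroid genes 3121 to 4283 and 105 to 128, and that of 3 astrocyte markers 2.03 to 2.88 and 359 to 432. No marker on these lists was at 0 over the 12 libraries. Progenitor and erythroid genes thus were higher at E12.5, with the ribosomal proteins, and neuronal and astrocyte genes at P5. Their part in the difference was not tested.

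**Figure D2:**
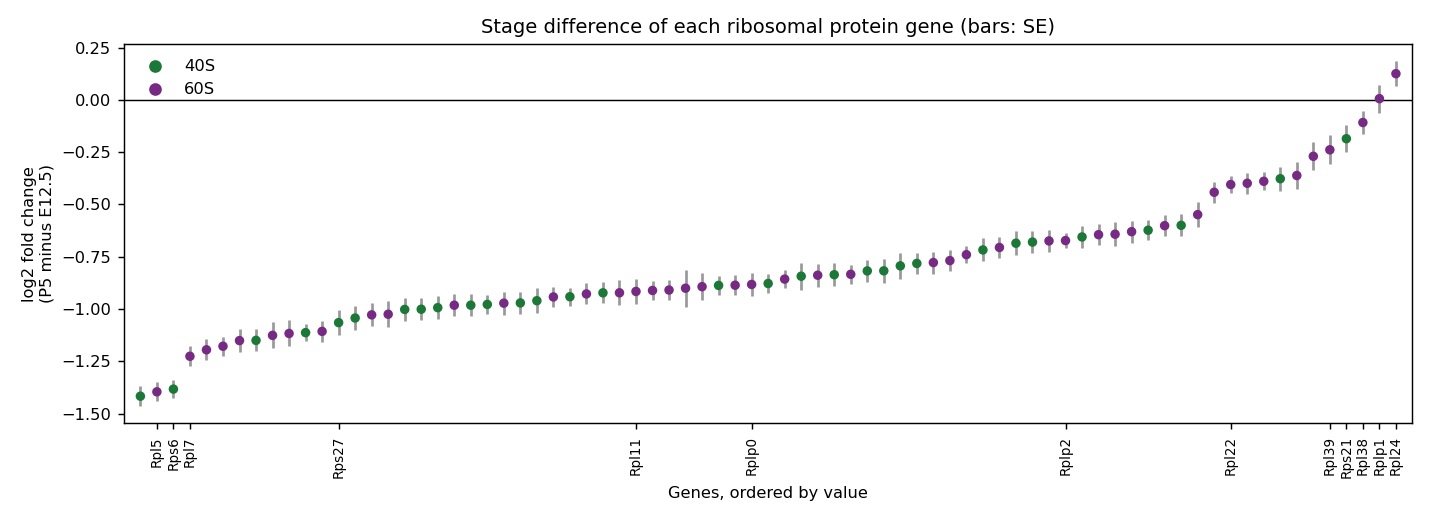
Log2 fold change of P5 against E12.5 for each of the 77 genes in order of size, with its standard error; colors mark the 40S and the 60S subunit. All but Rplp1 and Rpl24 lie below 0, and Rpl5 (-1.40) and Rps6 (-1.38) are among the lowest. Genes are named on the axis for a selection only.

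Among the 40S proteins, Rps6, which S6 kinase phosphorylates downstream of mTOR, was one of the genes that fell most. Rps6 was at 438, 518 and 479 CPM in the E12.5 Chd8+/+ libraries, 467, 466 and 489.6 in E12.5 Chd8+/-, 176, 186 and 176 in P5 Chd8+/+ and 185, 165 and 177 in P5 Chd8+/-. Its E12.5 and P5 values are far apart, with a log2 fold change of -1.38 ± 0.044 (adjusted p = 2.05e-13). Rps27 fell by 1.06, and Rps27a, which is made as a fusion with ubiquitin, fell by 1.04 on the log2 scale. Rps3, which lies at the entry of the mRNA channel, fell by 0.98, and the X-linked Rps4x by 0.88. The falls were smaller in Rpsa, also known as laminin receptor (-0.69), in Rps19, a gene of Diamond-Blackfan anemia (-0.66), and in Rps2 (-0.62). Rps21 was at 88.2, 109 and 96.1 CPM in the E12.5 Chd8+/+ libraries, 93.3, 87.3 and 101 in E12.5 Chd8+/-, 76.2, 81.1 and 75.3 in P5 Chd8+/+ and 98.8, 75.1 and 85.7 in P5 Chd8+/-. The stages overlapped in Rps21, which had the smallest fall of the 40S members (-0.19 ± 0.063, adjusted p = 0.0134). It was not called with DESeq2 (adjusted p = 0.0569), with RLE (0.0578) or upper-quartile scaling (0.0523), with a mean CPM of at least 1 as filter (0.0533) or in Chd8+/- alone (-0.072, adjusted p = 0.499, edgeR).

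Rpl5 and Rpl11 form a particle with the 5S rRNA. Rpl5 was at 537, 632 and 594 CPM in the E12.5 Chd8+/+ libraries, 596, 566 and 619 in E12.5 Chd8+/-, 211, 226 and 217 in P5 Chd8+/+ and 229, 207 and 218 in P5 Chd8+/-. Rpl5 fell by 1.40 ± 0.045 (log2, adjusted p = 2.19e-13), and its exons overlap those of Fam69a on the opposite strand, so that its counts at P5, made without strand, are uncertain. Rpl11 fell less, by 0.92 ± 0.058. The unequal change of the partners was not put to a test. Other large falls of 60S members were those of Rpl7 (-1.23), Rpl28 (-1.20) and Rpl7a (-1.18). Rpl35a, also mutated in Diamond-Blackfan anemia, was at -1.03, Rpl13a at -0.89, the core protein Rpl4 at -0.86, Rpl26 at -0.78 and Rpl3, which reaches the peptidyl transferase center, at -0.74. Rpl10, which joins the 60S subunit late, was at -0.71, the very small protein Rpl41 at -0.64, and Rpl22 at -0.40. All of these passed the threshold.

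The P stalk, through which the ribosome recruits elongation factors, is built from Rplp0 and pairs of Rplp1 and Rplp2. Its genes did not share 1 value. Rplp0 was at 986 to 1208 CPM over the E12.5 libraries and at 535 to 671 CPM over the P5 libraries, a fall by 0.88 ± 0.056 (adjusted p = 9.88e-10). Rplp2 went from 176 to 188 CPM to 105 to 124 CPM, a fall by 0.67 ± 0.038. Rplp1 was at 366, 478 and 412 CPM in the E12.5 Chd8+/+ libraries, 414, 369 and 429 in E12.5 Chd8+/-, 377, 391 and 366 in P5 Chd8+/+ and 476, 376 and 429 in P5 Chd8+/-. The stages overlapped in Rplp1, with a log2 fold change of 0.0062 ± 0.067 (adjusted p = 0.934).

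Besides Rplp1, 2 other members were not called. Rpl38 was at 93.2, 112 and 102 CPM in the E12.5 Chd8+/+ libraries, 106, 93.3 and 112 in E12.5 Chd8+/-, 90.7, 89.3 and 88.3 in P5 Chd8+/+ and 107, 85.9 and 97.4 in P5 Chd8+/-. The protein Rpl38, whose loss in mice affects the translation of Hox mRNAs, thus had overlapping stages and a log2 fold change of -0.11 ± 0.056 (adjusted p = 0.0851), and was called lower in Chd8+/+ alone (adjusted p = 0.0313, edgeR). It was also called with a filter of at least 1 count in total (adjusted p = 0.0297), and when 1 of 3 libraries was left out, replicate 1 of Chd8+/+ (adjusted p = 0.0334) or replicate 2 of Chd8+/- (0.0174) at E12.5, or Chd8+/- replicate 1 at P5 (0.0227). Rpl24 was at 11.3, 13.3 and 12.8 CPM in the E12.5 Chd8+/+ libraries, 13, 12.2 and 12.1 in E12.5 Chd8+/-, 12.7, 11.7 and 13.2 in P5 Chd8+/+ and 15.4, 12.6 and 13.8 in P5 Chd8+/-. The 12 values of Rpl24 lie within a narrow band, and its log2 fold change was 0.13 ± 0.059 (adjusted p = 0.0603). Rpl24 had the lowest level per kb of the members and shares exons with Gm28037 on the same strand, so its counts are uncertain. It was called higher with DESeq2 (adjusted p = 0.0362), with RLE or upper-quartile scaling, with a mean CPM of at least 1 as filter, and with replicate 2 of Chd8+/+ at E12.5, or of Chd8+/+ or Chd8+/- at P5, left out (adjusted p = 0.0230 to 0.0497), and was at -0.012 with offsets for gene length. Rpl39, at the exit of the peptide tunnel, was at 75.8 to 102 CPM at E12.5 and 66.3 to 83.5 CPM at P5. It fell by 0.24 ± 0.069 (adjusted p = 0.00486) and was not called in Chd8+/- alone (adjusted p = 0.149). In Rpl13 and Rpl36, too, the stages overlapped although the test called them lower (-0.27 and -0.36).

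Within a group, members moved together from library to library. In E12.5 Chd8+/+ replicate 2, 71 of the 77 members had their highest value of the 6 libraries of the stage, against 17.3% of all genes, and in E12.5 Chd8+/+ replicate 1, 59 had their lowest, against 18.7% of all genes. At P5, 73 members were highest in Chd8+/- replicate 1, against 25% of all genes, and 49 were lowest in Chd8+/- replicate 2, against 13.3%. The median of the members differed 1.20-fold between the highest and the lowest library in both E12.5 Chd8+/+ and P5 Chd8+/-, 1.11-fold in E12.5 Chd8+/- and 1.06-fold in P5 Chd8+/+. Subtracting the median of the members in each library left 6.58% of their squared deviation (log2 CPM) in E12.5 Chd8+/+, 17.2% in E12.5 Chd8+/-, 33.3% in P5 Chd8+/+ and 11.3% in P5 Chd8+/-. Short genes outside the set moved in the same direction. The genes compared, under 1 kb and over 5 kb, were limited to a mean log2 CPM over 5. Members had a median length of 1586 bases. In P5 Chd8+/- replicate 1 the median deviation from the mean of the stage was 0.17 (log2) for the members, 0.14 for 109 other genes under 1 kb and -0.034 for 3246 genes over 5 kb. In E12.5 Chd8+/+ replicate 2 these values were 0.14, 0.091 and -0.019 (122 and 3273 genes), and in E12.5 Chd8+/+ replicate 1 they were -0.13, -0.097 and -0.0029. The part of gene length in these shifts was not tested.

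**Figure D3:**
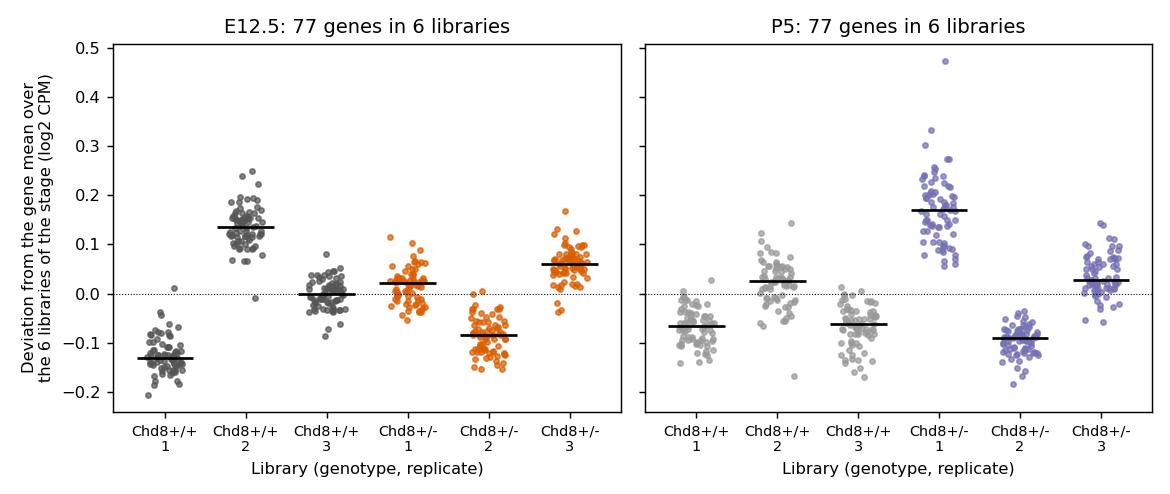
Deviation of each of the 77 genes from its mean over the 6 libraries of its stage (log2 CPM), 1 point per gene and library, with the median as a line. The genes of a library lie together, highest in E12.5 Chd8+/+ replicate 2 (median 0.14) and P5 Chd8+/- replicate 1 (median 0.17).

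Between genotypes at P5, 71 of the 77 members had a positive difference, against 50.4% of all genes, but no member was called by edgeR, which called 0.00536% of all 18666 genes (Chd8 alone). The median log2 fold change was 0.084, against 0.0017 over all genes, with 0.047 for the 40S and 0.092 for the 60S members. At an unadjusted p under 0.05 stood 9 members, all higher in Chd8+/- (11.7% of members, against 8% of all genes that were higher at that level). No member had genotypes that did not overlap, in either direction, whereas 11% of all genes had all Chd8+/- libraries above all Chd8+/+ libraries and 12.2% had them below. DESeq2 called 2 members higher (1.71% of the genes to which it gave an adjusted p), Rps25 and Rpl36, and limma-voom called none.

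Rps25, a 40S protein used by viral internal ribosome entry sites, was at 135, 139 and 133 CPM in P5 Chd8+/+ and 169, 138 and 159.9 in P5 Chd8+/-. Replicate 2 of Chd8+/- lay among the Chd8+/+ libraries and the other two above them. The log2 fold change was 0.19 ± 0.064 (edgeR adjusted p = 0.173, DESeq2 adjusted p = 0.0361), and its exons overlap those of Ccdc84 on the opposite strand. Rpl36 was at 67.3, 69.9 and 65 CPM in Chd8+/+ and 92.3, 68.9 and 79.1 in Chd8+/-. It showed the same order of libraries, with 0.25 ± 0.084 (edgeR adjusted p = 0.174, DESeq2 adjusted p = 0.0314). Rpl13a, which in immune cells also leaves the ribosome to silence mRNAs, was at 309.7, 330.2 and 311 CPM in Chd8+/+ and 422, 315 and 378 in Chd8+/-, a difference of 0.23 ± 0.084 (adjusted p = 0.207 with edgeR and 0.281 with DESeq2). Replicate 1 of Chd8+/- was the highest library in each of the 3 genes. Rpl41 was at 0.17 ± 0.063 (adjusted p = 0.22) and Rps15, a protein near the decoding site, at 0.18 ± 0.073 (adjusted p = 0.233). Rpl4, Rps6, Rpl10 and Rpl5 were among the 6 members with a negative difference, of which Rpl4 had the lowest value (-0.05 ± 0.051). Of the others named by role, Rplp1 was at 0.18, Rpl11 at 0.12, Rpsa at 0.11 and Rps19 at 0.13, and none passed the threshold.

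The value at P5 rested on single libraries. Without Chd8+/- replicate 1, the Chd8+/- library of P5 with high Xist, the median was 0.013, with 43 of 77 members positive and none called. Without Chd8+/- replicate 2 it was 0.14, and edgeR called 8 members higher (0.604% of all genes). With a filter of at least 1 count in total, edgeR called 6 members higher (1.21% of all genes). Offsets fitted to gene length in each library gave a median of 0.052 with 60 members positive, beside 0.017 over all genes. Over all genes, the log2 fold change at P5 had a Spearman correlation of -0.237 with gene length across the 18666 genes, which share the 6 libraries and are not independent. No marker of the cell types read was called at P5 by edgeR. The summed level of 4 choroid plexus markers was 423 to 549 CPM in Chd8+/+ and 312 to 369.5 in Chd8+/-, with 0 of 4 positive, that of 4 striatal markers 151 to 163 and 112 to 135 (0 of 4), and that of 4 endothelial markers 152 to 173 and 138 to 155 (1 of 4). The endothelial sums overlapped, and so did those of 4 meningeal markers, at 202 to 223 and 196 to 256, with 4 of 4 positive. Of the progenitor markers 1 of 6 was positive (median log2 fold change -0.13, sums 202 to 224 and 197 to 206 CPM), and of the erythroid genes 1 of 5 tested (median -0.14, 119 to 128 and 105 to 124 CPM). None of these markers was at 0 over the 12 libraries, and their part in the member values was not tested.

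At E12.5, 31 members had a positive and 46 a negative difference (50.2% of all genes were positive), with a median of -0.0055, against 0.00058 over all genes. EdgeR called 0 members, against 0.00553% of the 18081 genes tested, and no member had an unadjusted p under 0.05, against 5.15% of genes. DESeq2 and limma-voom called 0 members. In none did the genotypes separate, against 5.45% of genes with all Chd8+/- libraries higher and 5.9% with all lower. The member with the smallest p was Rpl35a. It was at 142, 172 and 155 CPM in Chd8+/+ and 175, 165 and 180.0 in Chd8+/-, which overlap, with a difference of 0.15 ± 0.067 (edgeR, all-gene fit, unadjusted p = 0.0538, adjusted p = 0.942). Rps27 (-0.12) and Rpl4 (-0.088) were among the lowest. The median ran from -0.072 without Chd8+/+ replicate 1 to 0.060 without Chd8+/+ replicate 2, and so changed sign with the library left out.

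**Figure D4:**
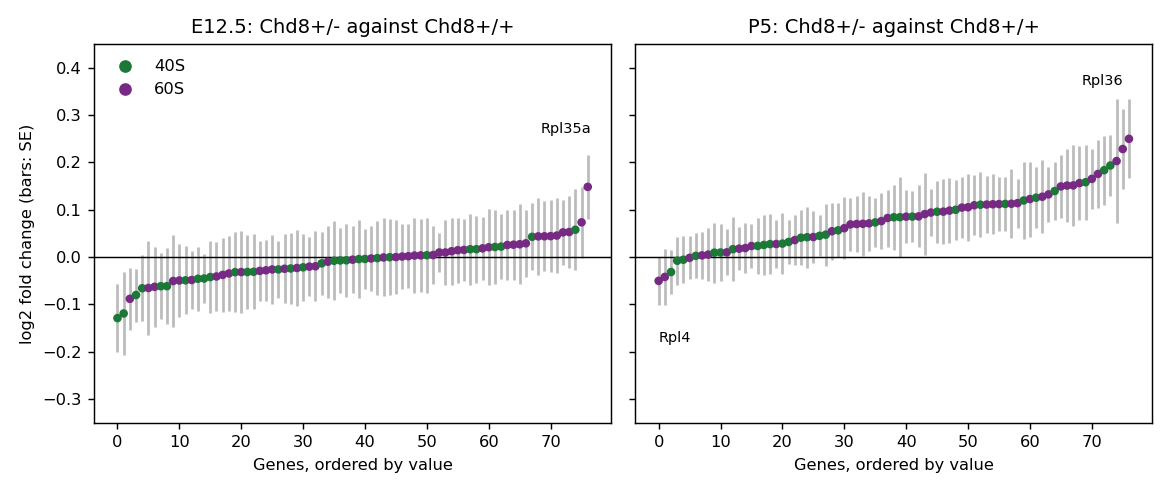
Log2 fold change of Chd8+/- against Chd8+/+ for each of the 77 genes, ordered by value within each panel, with its standard error; E12.5 on the left and P5 on the right. At E12.5 the values center near 0 (median -0.0055), and at P5 71 of 77 lie above 0 (median 0.084).

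The interaction of genotype and stage tests whether the difference between genotypes changed from E12.5 to P5. No gene was called (0% of 19676 genes), and no member had an unadjusted p under 0.05, against 10% of all genes. DESeq2 and limma-voom called 0 members. The median over the members was 0.083, against -0.019 over all genes, and 63 were positive, against 45.8% of all genes. The smallest p was that of Rps25 (0.20 ± 0.10, edgeR adjusted p = 0.544), and the lowest value that of Rpl10 (-0.085 ± 0.10, adjusted p = 0.805). Without P5 Chd8+/- replicate 1 the median was 0.0045.

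Paralogs and partners of the members were read in the same tests. Of 8 paralogs outside the set, 6 were tested between stages, and 4 of them fell, against 44.2% of all genes. Rps27l, a p53 target beside Rps27, went from 41 to 51.7 CPM at E12.5 to 10.8 to 13.7 CPM at P5 (-1.88 ± 0.064, adjusted p = 4.85e-13), a larger value than that of Rps27, although this difference was not tested. Rpl7l1 was at -1.43 ± 0.031, Rpl22l1, which can take the place of Rpl22, at -0.51 ± 0.059, and Rpl36al at -0.48 ± 0.055, all called lower. Rpl3l, known from striated muscle, was called higher but reached only 0.171 to 0.369 CPM at P5, from 0 to 0.0423 CPM at E12.5, which corresponds to at most 17 counts in a library. Rps4l was not called by edgeR (0.10, adjusted p = 0.106) but was called higher by DESeq2 (adjusted p = 0.0402), with RLE or upper-quartile scaling or with a mean CPM of at least 1 as filter (edgeR, adjusted p = 0.0274 to 0.0348), and without replicate 2 of E12.5 Chd8+/+ (0.0238) or replicate 1 of P5 Chd8+/- (0.0365). Rpl39l, at 1 to 9 counts per library, was not tested, and neither was Rpl10l, which had 0 counts in all 12 libraries (3 counts in the smallest library would be 0.0774 CPM). Between genotypes edgeR called no paralog at either stage, and DESeq2 called Rps4l higher at P5. It was at 25.2, 31.3 and 27.6 CPM in E12.5 Chd8+/+ and 35.1, 36.4 and 34 in E12.5 Chd8+/-, with no overlap (as in 5.45% of all genes), and at 31.2, 28.6 and 30.9 in P5 Chd8+/+ and 32.3, 38.4 and 35.7 in P5 Chd8+/-, also with no overlap (as in 11% of all genes). The log2 fold changes were 0.33 ± 0.08 (adjusted p = 0.924 with edgeR and 0.322 with DESeq2) and 0.23 ± 0.067 (0.139 and 0.0389). Fau, made as a fusion of a ubiquitin-like and a ribosomal protein (-0.65 ± 0.062), and Rack1, which is bound to the 40S subunit (-1.09 ± 0.049), also fell between stages.

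Translation factors and other mRNAs known to carry TOP tracts fell between stages in 16 of 16 cases, against 44.2% of all genes. Their median was -0.89. Eef1a1, the elongation factor that brings tRNA to the ribosome, went from 7287 to 8559 CPM to 3431 to 3875 CPM (-1.05 ± 0.041). Its neuronal counterpart Eef1a2 went the other way, from 13.6 to 19.6 CPM to 325 to 355 CPM (4.47 ± 0.085). Of 38 genes for ribosome assembly and rRNA synthesis, 33 fell, against 44.2% of all genes. In this list 1 was called higher (Bop1), against 43.7% of all genes, and 4 did not pass. The median of the list was -0.81. Bop1 was at 0.11 ± 0.045 (adjusted p = 0.0373, edgeR) with overlapping stages, was not called in Chd8+/+ alone (adjusted p = 0.608), and was called lower with offsets for gene length (-0.16, adjusted p = 0.00882). When 1 library was left out it stayed past the threshold only without replicate 2 of Chd8+/+ or 3 of Chd8+/- at E12.5, or 3 of Chd8+/+ or 2 of Chd8+/- at P5, and adjusted p was up to 0.133 without the others. The largest falls were those of Dkc1, the pseudouridine synthase of snoRNA particles (-2.30 ± 0.043), and the nucleolar chaperone Npm1 (-2.25 ± 0.04). Of 13 regulators, 8 fell and 2 rose by edgeR (8 and 4 by DESeq2), against 44.2% and 43.7% of all genes by edgeR. Mycn fell by 1.09 and Myc rose by 1.49, from 12.2 to 16 CPM to 37.4 to 41 CPM. Mtor rose by 0.21, the translation repressors Eif4ebp1 and Eif4ebp2 fell by 1.46 and 2.22, and Larp1 did not pass (-0.037). Between genotypes edgeR called no gene of these lists at either stage. At P5, 11 assembly genes were higher and 3 lower at an unadjusted p under 0.05 (of 38 genes, against 8% and 9.77% of all genes), and so were 2 and 2 of the 16 translation factors and other TOP mRNAs. At E12.5 there was none in either list. Of the 13 regulators, 2 were higher in Chd8+/- at E12.5 at that level, against 5.15% of all genes in either direction. At P5, 1 regulator was lower, against 9.77% of all genes. DESeq2 called 1 of these genes, Npm1, lower at P5 (-0.14, adjusted p = 0.0408, against 3.57% of genes called lower) and none at E12.5. The medians of the assembly genes and of the TOP list at P5 were 0.037 and -0.012, beside 0.084 for the ribosomal proteins.

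**Figure D5:**
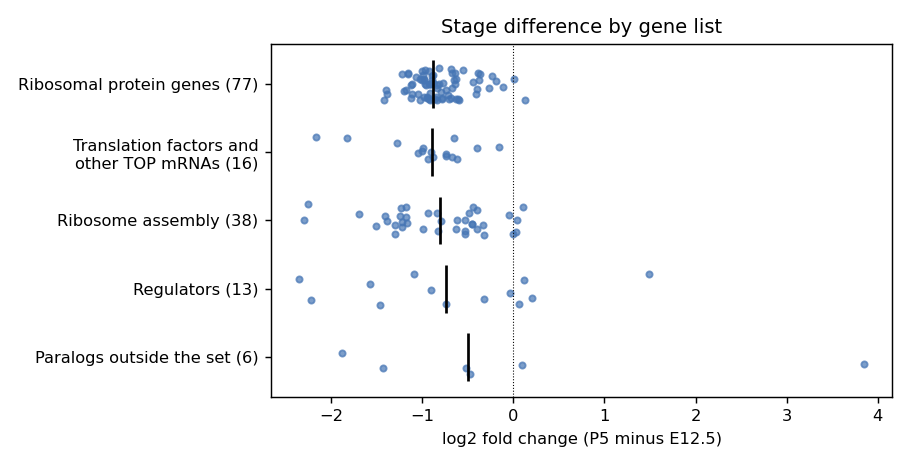
Log2 fold change of P5 against E12.5 by gene list, 1 point per gene tested, with the median as a line and the number of genes in brackets. The medians lie at -0.88 for ribosomal proteins, -0.89 for translation factors and other TOP mRNAs and -0.81 for assembly genes, and the point near 4 is the paralog Rpl3l.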

How the data were processed

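RNA was sequenced on paired-end, strand-marking libraries from the 12 samples. Per the labels and methods, the authors trimmed reads with Trim Galore 0.4.1, aligned them with TopHat2 2.1.0 to GRCm38 and counted them per gene with featureCounts 1.5.0. The deposited values are raw counts per gene and run, without normalization. The command in the P5 table counts fragments without strand and without multi-mapping reads; for E12.5 it is not given in the sources used here. Reads of near-identical copies and of overlapping opposite genes are thus uncertain in both directions. The authors compared genotypes with DESeq2 1.10.1.

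Here the 2 runs of a library were summed. EdgeR 4.0.16 under R 4.3.3 was run on all genes with filterByExpr at its defaults, TMM factors and the quasi-likelihood test, with p-values adjusted by Benjamini-Hochberg over all genes tested (threshold 0.05), within each stage for the genotypes and over 12 libraries for stage and interaction. The code was tested on simulated data. Alternatives were DESeq2 1.42.0, limma-voom (limma 3.58.1), other scalings and filters, offsets for gene length (a loess trend per library), pseudogene counts added to their parents, a block for the replicate number, and fits that leave out 1 library each. Log2 levels carry a pseudocount of 0.5 CPM. Total counts of 38774591 to 54695236 set the precision of genes with low counts. Sequences came from RefSeq (GRCm38.p6), which held 57 of 77 members.

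The members and gene lists were chosen with earlier results of these data known. Members named were those with a set role (P stalk, 5S particle, and selected 40S and 60S proteins), the 5 with the smallest p in each direction of a comparison, the 3 highest and lowest per kb, and list genes past the threshold or paired as paralogs. Rpl13, Rpl36 and Rps21 in the stage comparison, and the list genes given without a call, were named after their values were seen. Values of some genes that this rule names are not reported here.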

Additional observations from a re-analysis of the deposited data

How the results depend on the processing

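Between stages, 72 to 75 of the 77 members were called under every alternative run, and their median stayed between -0.92 and -0.83, apart from -1.01 with offsets for gene length, which moved the median of all genes to -0.22 and left the members 0.79 below it. DESeq2 and the filter of at least 1 count moved that of all genes to 0.17 and 0.13. At P5 the count of members called was 0 in edgeR, 2 with DESeq2, 6 with the filter of at least 1 count, and 0 to 8 with a library left out. The median there ran from 0.013 to 0.14 with a library left out. At E12.5 and for the interaction no alternative called a member, and the medians ran from -0.072 to 0.060 and from 0.0045 to 0.17 with a library left out. The replicate numbers do not pair the samples (correlations of same-numbered deviations from -0.295 to 0.245). With the number as a replicate block the medians were -0.0026 at E12.5, 0.079 at P5 and -0.88 between stages, with 0, 0 and 74 members called, and Chd8 at E12.5 was at -0.51 (adjusted p = 0.346, edgeR). Chd8 at E12.5 lay between -0.52 and -0.50 with a library left out. Rpl24 had 502 to 694 counts per library, and its stage call changed with scaling, filter and the library left out.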
